A study of Mus musculus with 8 samples.

Results

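The better detected microRNA genes of the mouse ascending aorta are described here, 173 of the 599 microRNA symbols that the array platform gives alone to a row (28.9%). A microRNA gene entered when its brightest single-symbol row, matched by a symbol beginning with Mir or Mirlet and a digit, had a mean log2 signal of at least 5 over all 8 arrays. The remaining 426 symbols lay below that floor. The members were thus chosen on their mean signal, and their brightness is a description. They come from 645 single-symbol microRNA rows, of which 196 reached the floor, and 2 of the 173 are host transcripts by name rather than hairpins, Mir143hg (Carmn in RefSeq) and Mir100hg.

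Total RNA of the ascending aorta from 10-week-old male mice was hybridised to Clariom D arrays, with 4 arrays for Fbn1mgR/mgR mice and 4 for wild-type mice. Both genotypes came from matings of Fbn1mgR/+ heterozygotes on a C57BL/6J background, and the mgR allele is carried in the whole body. It is a hypomorphic allele of fibrillin-1, the main protein of microfibrils, and is used as a mouse model of Marfan syndrome. The comparison is of the homozygous mutants with the wild-type mice at this one age; whether the arrays stand for separate animals is not said, so the p-values measure the spread between these 8 samples.

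A microRNA is cut from a hairpin in a longer primary transcript, first by Drosha in the nucleus and then by Dicer1 in the cytoplasm, and guides an Argonaute protein to messenger RNAs. Pairing rests mainly on the seed, a short stretch near the 5′ end of the mature strand, so that microRNAs with one seed share many predicted targets. In the arterial wall the Mir143 and Mir145a pair is typical of contractile smooth muscle, the Mir29 and Mir30 families are known for repressing matrix genes, and the Mir23a, Mir27a and Mir24-2 cluster for roles in endothelium and fibrosis. A row of this array measures biotin-labelled RNA made from total RNA. It does not separate the mature strand from the hairpin, the primary transcript or a host gene that holds the same sequence.

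Of the 173 members, 110 had a mature sequence in the RefSeq table (GRCm38.p6), 172 mature strands with 159 distinct seeds. The strands below belong to the members whose values are described next, in lower case with the seed (bases 2 to 8) in capitals. The first set shares the Mir30 seed, and Mir30c-1 (chr4:120769584-120769606, minus strand) and Mir30c-2 (chr1:23291714-23291736, plus strand) give the same mature strand from 2 loci.
mmu-miR-30a-5p: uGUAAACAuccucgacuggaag
mmu-miR-30c-5p: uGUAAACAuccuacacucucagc
The let-7 set shares another seed across Mirlet7a-1, Mirlet7b and Mirlet7d.
mmu-let-7a-5p: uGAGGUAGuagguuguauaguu
mmu-let-7b-5p: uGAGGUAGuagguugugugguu
mmu-let-7d-5p: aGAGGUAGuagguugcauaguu
Mir181b-2 and Mir181d share a seed, as do Mir26a-1 and Mir26b.
mmu-miR-181b-5p: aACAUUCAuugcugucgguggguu
mmu-miR-181d-5p: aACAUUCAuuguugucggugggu
mmu-miR-26a-5p: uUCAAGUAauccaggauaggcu
mmu-miR-26b-5p: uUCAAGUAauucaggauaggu
The next strands come from members with differences that are described below, Mir692-1 (chr17:6895259-6895279, minus strand), Mir340 (chr11:50069720-50069741, plus strand), Mir99a (chr16:77598940-77598961, plus strand) and Mir1191 (chr7:27205615-27205635, plus strand).
mmu-miR-692: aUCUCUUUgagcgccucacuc
mmu-miR-340-5p: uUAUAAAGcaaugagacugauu
mmu-miR-99a-5p: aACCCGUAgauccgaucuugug
mmu-miR-1191a: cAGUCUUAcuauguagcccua
The last set shows the 3 neighbours of the Mir23a cluster, whose seeds differ, and Mir29b-1.
mmu-miR-23a-3p: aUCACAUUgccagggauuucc
mmu-miR-27a-3p: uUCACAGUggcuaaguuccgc
mmu-miR-24-3p: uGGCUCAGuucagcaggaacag
mmu-miR-29b-3p: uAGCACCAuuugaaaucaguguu

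Most members were dim. The median of their mean log2 signals was 6.28, with 70 members between 5 and 6, 66 between 6 and 8, and 37 at 8 or more. The median of all 645 microRNA rows was 4.17, close to the 4.01 of all 65956 rows. Olfactory receptor rows, a reference for genes that aorta should not express, had a median of 3.38 and a 95th percentile of 4.11 over 1228 rows, and 48.8% of the microRNA rows lay at or below that percentile. Array medians ran from 3.95 to 4.07. Contractile smooth muscle markers averaged 12.56 to 13.88 per array. All 16 macrophage markers passed the test as higher in Fbn1mgR/mgR, with array means of 9.38 to 10.10 against 7.54 to 7.93. Brown fat markers reached 10.26 in mgR614 and 10.56 in WT676 but 6.25 to 8.10 in the other 6 arrays, and the values below were also computed with the fat markers as a covariate and without those 2 arrays.

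The brightest members were not the microRNAs known from arteries. Mir703 stood at 19.93 on all arrays but mgR614, where it read 19.92, which is the ceiling of the table. Mir3473a averaged 19.18, Mir684-1 and Mir684-2 lay between 18.64 and 19.30 on every array, and Mir3470b averaged 18.61. Mir6240, Mir1954, Mir3473f, Mir1191, Mir669e and Mir3471-1 followed, down to 15.19. Of all members, 21 reached 10 and 11 reached 15.

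Many of these bright rows do not lie where the microRNA gene does. The row and RefSeq chromosomes were both known for 144 members, and in 17 of them (11.8%) the row was on another chromosome. Of 22622 single-symbol rows of any gene the share was 0.420%. A member is the brightest row of its symbol and reaches the floor, whereas the rows of any gene were chosen on neither. The shares are thus of unlike sets, and their difference was not tested. These 17 include 10 of the 21 members at 10 or more and 6 of the 11 at 15 or more. For 12 of them the table also holds a row for the same gene on its own chromosome, and that row was dimmer by 0.20 to 14.10 log2 units, with a median gap of 5.73. The rule takes the brightest single-symbol row, so another single-symbol row of the gene had to be dimmer. The direction of the gap is thus set by the rule, and its size is a description. The Mir3473a row on chromosome 15 averaged 19.18, whereas its row on chromosome X, which the platform gives under more than 1 symbol for the gene, averaged 5.09. Mir3471-1 read 15.19 from a row on chromosome 5 and 5.59 from the row on chromosome 4, its own. Mir669e, Mir325, Mir466o and Mir1950 would have missed the floor on their own chromosome, with means of 4.29, 3.60, 4.17 and 3.76. A row on the right chromosome need not be at the gene either, so the match is a partial check.

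**Figure D1:**
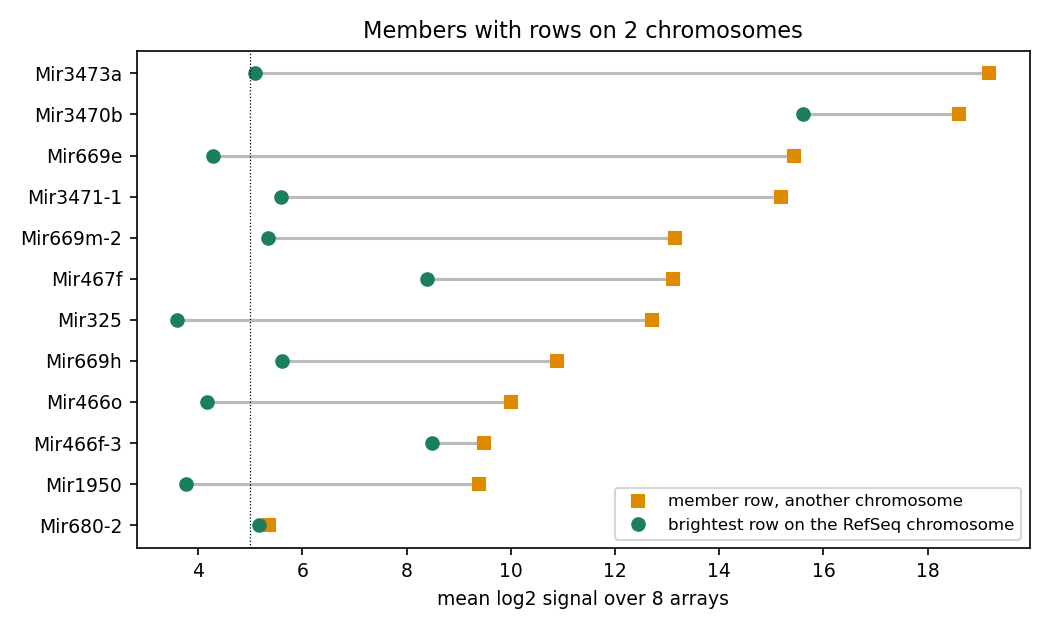
Mean log2 signal over 8 arrays (horizontal axis) for the 12 members with a row on another chromosome and a further row on the RefSeq chromosome of the gene. Squares are the member rows, circles the brightest row on the RefSeq chromosome, and the dotted line is the floor of 5. By the rule a square is the brightest single-symbol row of its gene. Below the floor lie 4 circles, and the gaps run from 0.20 to 14.10.

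Some members could not be separated from each other. The 173 members gave 166 distinct profiles, and 10 members share all 8 values with at least 1 other. These are Mir467a-1, Mir467a-4, Mir467a-5, Mir467a-7 and Mir467a-8, then Mir467a-3, Mir467a-6 and Mir467a-10, and Mir669p-1 with Mir669p-2. All belong to the Mir297, Mir466, Mir467 and Mir669 families, whose near-identical hairpins repeat in an intron region of Sfmbt2 on chromosome 2, and which supply 43 members.

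No member passed the test between genotypes. With limma and Benjamini-Hochberg adjustment over the 32957 rows above the median signal, an adjusted p under 0.05 was reached by 0 of 173 members in the upward direction and by 0 in the downward one, whereas 2.10% of all rows tested passed (1.54% up in Fbn1mgR/mgR and 0.558% down). At an unadjusted p under 0.05 there were 13 members (7.51%), 2 higher and 11 lower, against a background of 14.2% (7.45% higher and 6.72% lower). In 3 members (1.73%) the 4 values of one genotype did not overlap those of the other, against 8.92% of all rows. The difference between these shares was not tested.

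The members' differences leaned slightly downwards. Their median was −0.050 log2 units, beside −0.017 for all rows tested, and 104 of 173 (60.1%) were below 0, beside 53.9%. The extremes were −1.14 and 1.02. In size, 17 members reached 0.5 and 2 reached 1, beside 3215 and 755 of the 32957 rows tested. The median size of a difference was 0.152, beside 0.138 for all rows tested. The median standard error of a member was 0.195, above the 0.151 of all rows. Among the 127 members whose row lay on the RefSeq chromosome the median was −0.010, with 67 below 0. Among the 17 on another chromosome it was −0.188, with 15 below 0. The 29 members with no chromosome match had a median of −0.108, with 22 below 0. Of the 21 members at 10 or more, which overlap these groups, 16 were below 0. Differences between the groups were not tested, and members of a repeat family do not count as independent. The 146 tested microRNA rows below the floor gave 0 calls in limma and 12 rows (8.22%) at an unadjusted p under 0.05, beside 14.2% of all rows tested.

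**Figure D2:**
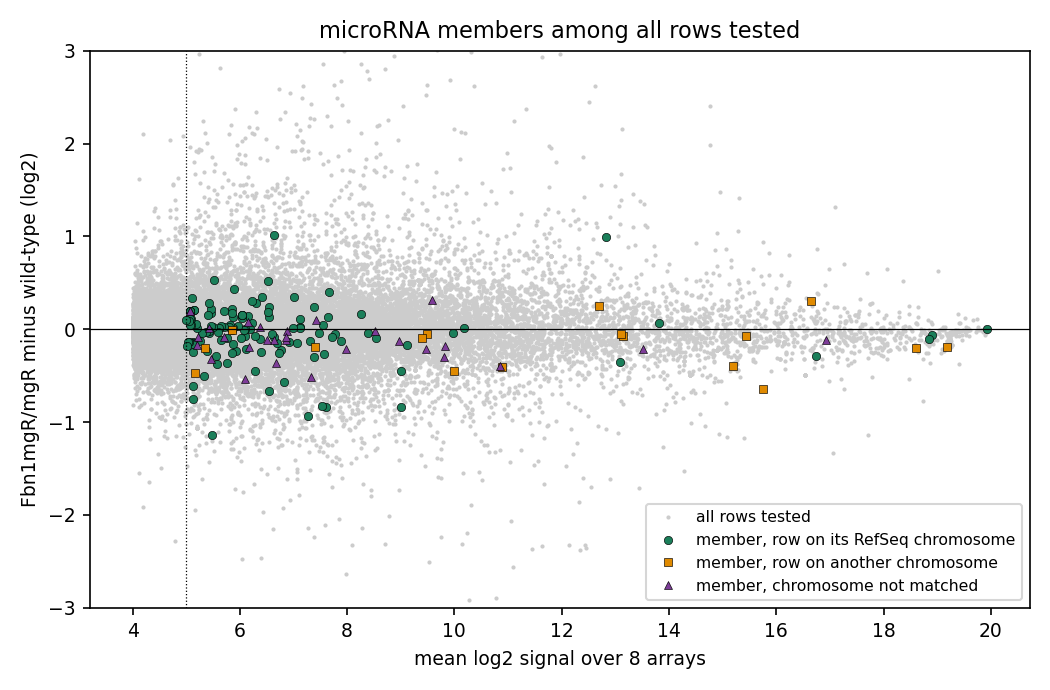
Log2 difference, Fbn1mgR/mgR minus wild-type (vertical axis), against the mean log2 signal over 8 arrays (horizontal axis). Grey points are all rows tested (32 lie beyond the plotted range of 3), circles are members with the row on its RefSeq chromosome, squares members with the row on another chromosome, triangles members with no chromosome match, and the dotted line is the floor of 5; members span −1.14 to 1.02.

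Mir692-1 came nearest to the threshold. It read 12.81, 13.92, 13.44 and 13.08 in Fbn1mgR/mgR and 12.17, 12.55, 12.15 and 12.43 in wild-type. Every mutant array lay above every wild-type array, with means of 13.31 ± 0.480 against 12.32 ± 0.197 (SD, n = 4 each). The difference was 0.99 (SE 0.227), a 1.98-fold higher signal, with an adjusted p of 0.0639 in limma. Without mgR611 it passed in limma (difference 1.16, adjusted p = 0.0333), as it did under 5 other settings, and over all settings its adjusted p ran from 0.0164 to 0.163. Other Mir692 copies are joined on the platform with the ferritin light chain genes Ftl1 and Ftl2, so this row cannot be told apart from ferritin sequence by its name. Ftl1, an iron storage subunit abundant in macrophages, read 12.34 to 13.06 in Fbn1mgR/mgR and 11.92 to 12.22 in wild-type, a difference of 0.60 (SE 0.169, adjusted p = 0.125 in limma). The values of Ftl1 and the macrophage markers moved with Mir692-1, and their part in it was not tested.

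The other member with a positive difference at an unadjusted p under 0.05 was Mir3473f, a row on chromosome 18 for a gene of chromosome 1. It read 16.56, 16.77, 16.97 and 16.93 in Fbn1mgR/mgR against 16.32, 16.70, 16.46 and 16.53, a difference of 0.30 (SE 0.115, adjusted p = 0.260 in limma). The genotypes overlapped. With quantile normalization it passed the threshold in limma, with a difference of 0.41 (adjusted p = 0.0290).

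Mir340 had the largest positive difference, 1.02 (SE 0.479, adjusted p = 0.382 in limma), but with a wide spread. The mutant arrays read 5.77, 7.91, 6.75 and 8.12, the wild-type arrays 6.56, 5.55, 6.33 and 6.04. Only mgR611 fell among the wild-type values. With 1 array left out the difference ran from 0.69 (without mgR614) to 1.47 (without mgR611), and without both mgR614 and WT676 it was 0.50. Mir340 lies within Rnf130, a gene on the same strand whose difference was 0.13 (SE 0.151).

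Mir28c had the largest negative difference, −1.14 (SE 0.403, adjusted p = 0.227 in limma). It read 4.31, 4.86, 5.90 and 4.55 in Fbn1mgR/mgR and 5.20, 6.83, 6.33 and 5.83 in wild-type. The mutant mean of 4.91 lay below the floor and the wild-type mean of 6.05 above it, as in 14 members where only 1 genotype mean reached 5. These 14 had to be high in one genotype to enter, so their differences carry that choice. Mir26a-1 and Mir181b-2, described below, are among them. Without both mgR614 and WT676 the difference of Mir28c was −0.76.

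Mir1191 is a bright row on chromosome 5 for a gene of chromosome 7. It read 15.02, 15.72, 15.55 and 15.49 in Fbn1mgR/mgR and 15.66, 16.41, 16.00 and 16.25 in wild-type. The difference was −0.64 (SE 0.190, adjusted p = 0.151 in limma), and only mgR612 overlapped the wild-type range. Mir467e and Mir669d, both of the chromosome 2 families, were the 2 members lower without overlap. Mir467e read 6.64 to 7.36 against 7.45 to 7.81 (difference −0.51, adjusted p = 0.228), and Mir669d 6.27 to 6.71 against 6.76 to 7.05 (difference −0.36, adjusted p = 0.286), both in limma. The remaining members under an unadjusted p of 0.05 were Mir3471-1, Mir466f-1, Mir466f-2, Mir680-3 and Mir1970, with differences from −0.53 to −0.24 (that of Mir466f-2 was −0.53, and −0.32 without mgR614), and Mir30c-2 and Mir181b-2, given with their families.

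**Figure D3:**
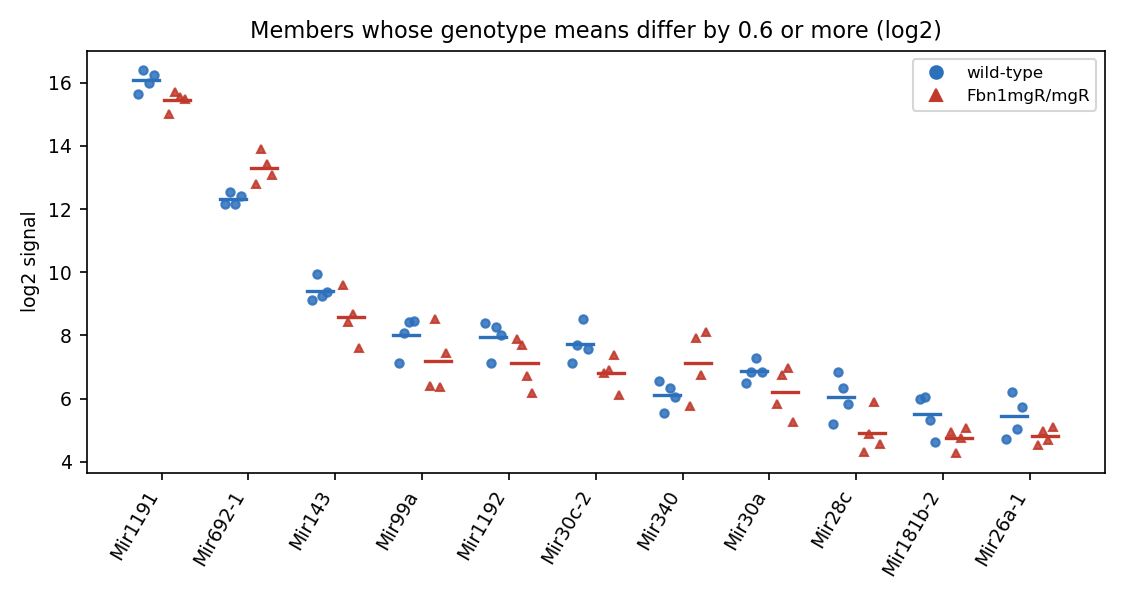
Log2 signal of each array (vertical axis) for the 11 members whose genotype means differ by 0.6 or more. Circles are wild-type and triangles Fbn1mgR/mgR arrays (n = 4 each), and bars are means. Of the members shown, 9 have the lower mean in Fbn1mgR/mgR and 2, Mir692-1 and Mir340, the higher. Mir28c, Mir26a-1 and Mir181b-2 reached the floor of 5 only in the wild-type mean.

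Some known vascular microRNAs were members. Of 37 microRNAs listed for smooth muscle, 26 had a single-symbol row and 8 qualified. The other 11 had no single-symbol row and could not enter, whatever their signal. Among them Mir195a averaged 6.71 (difference 0.06) and Mir145a, described below, 11.20. Over the whole platform, 107 rows with several symbols for 1 microRNA gene reached the floor and stayed outside the rule. The list gave 0 calls in limma among its 12 tested rows, with a median difference of −0.06. At an unadjusted p under 0.05 there was 1 row (8.33%), below the floor, beside 14.2% of all rows tested.

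Mir143, the best known smooth muscle microRNA, was the brightest of the 8. It read 9.61, 8.42, 8.69 and 7.59 in Fbn1mgR/mgR and 9.11, 9.96, 9.24 and 9.36 in wild-type. The mutant arrays other than mgR611 lay below all wild-type arrays, and mgR611 lay above 3 of them. The difference was −0.84 (SE 0.380, adjusted p = 0.362 in limma). Without mgR614 it was −0.51, and without both mgR614 and WT676 −0.33. Its host transcript Carmn, listed as Mir143hg, a smooth muscle long noncoding RNA, differed by −0.45 (SE 0.207, adjusted p = 0.367 in limma), with 9.18, 8.67, 8.80 and 8.45 against 9.06, 9.63, 9.32 and 8.90. The partner Mir145a sits in a row with 2 symbols for its gene and is outside the rule, and it read 11.93, 10.68, 10.40 and 10.08 against 11.34, 12.06, 11.64 and 11.50. Its difference of −0.86 had an adjusted p of 0.315 in limma. In all 3 rows mgR611 was the highest mutant array and mgR614 the lowest. The contractile smooth muscle markers averaged 13.58, 13.34, 13.21 and 12.56 in the mutant arrays and 13.20, 13.36, 13.88 and 13.71 in wild-type, also highest in mgR611 and lowest in mgR614 among the mutants. Their part in the result was not tested, and in bulk tissue fewer smooth muscle cells and less RNA per cell cannot be told apart.

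Mir99a, of the Mir99 and Mir100 family, varied most among the smooth muscle members. It read 6.41, 8.53, 6.38 and 7.43 in Fbn1mgR/mgR and 7.12, 8.09, 8.43 and 8.46 in wild-type, a difference of −0.84 (SE 0.488, adjusted p = 0.505 in limma). The array mgR612 exceeded all wild-type arrays, and without it the difference was −1.28. Mir26a-1, a microRNA of smooth muscle growth control, read 4.53 to 5.09 against 4.73 to 6.22 (difference −0.61, adjusted p = 0.403 in limma, and −0.34 without WT676). Only its wild-type mean, 5.43, reached the floor, against 4.82 in Fbn1mgR/mgR, so the difference carries that choice. Mir26b, which shares the seed of Mir26a-1, differed by 0.13. The let-7 members Mirlet7a-1, Mirlet7b and Mirlet7d differed by 0.06, 0.02 and −0.30, the last at −0.18 without mgR614. Mir31 and Mir125b-2 differed by −0.07 and −0.04.

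Of 24 microRNAs listed for matrix and fibrosis, 18 had a single-symbol row and 8 qualified, with 0 calls in limma among 12 tested rows and a median difference of −0.11. Mir30c-2 had the lowest p of the list. It read 6.81, 6.91, 7.39 and 6.11 in Fbn1mgR/mgR and 7.14, 7.71, 8.52 and 7.57 in wild-type. Only mgR613 rose above the lowest wild-type array, and the difference was −0.93 (SE 0.328, adjusted p = 0.226 in limma). Mir30a, also on chromosome 1, read 5.84, 6.76, 6.96 and 5.27 against 6.50, 6.84, 7.28 and 6.84, a difference of −0.66 (SE 0.354, adjusted p = 0.460 in limma). Both were lowest in mgR614, without which Mir30a differed by −0.35. The family members elsewhere were flatter. Mir30c-1, which yields the same mature strand as Mir30c-2 from chromosome 4, differed by 0.17 (SE 0.181; 0.03 without mgR614), and the chromosome 15 neighbours Mir30b and Mir30d by −0.10 and −0.13 (SE 0.125 each). Mature miR-30c levels cannot be read from either row.

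Mir29b-1, a repressor of collagen and elastin messages, read 5.90, 5.49, 4.77 and 5.40 against 5.49, 5.60, 6.10 and 5.84. The difference was −0.37 (SE 0.232, adjusted p = 0.551 in limma), and the genotypes overlapped. Without mgR613 it was −0.16. Mir34b, a p53-responsive microRNA, read 6.57, 5.84, 6.12 and 5.87 against 5.67, 5.28, 5.80 and 5.94, with a difference of 0.43 (SE 0.197, adjusted p = 0.373 in limma), and of 0.27 without mgR611. Mir24-2 differed by 0.14, or 0.00 without mgR613.

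Of 28 endothelial microRNAs listed, 9 had a single-symbol row and 4 qualified, with 0 calls in limma and a median difference of −0.12. Mir181b-2, which restrains endothelial inflammatory signalling, read 4.94, 4.26, 4.74 and 5.08 in Fbn1mgR/mgR and 5.99, 6.06, 5.33 and 4.62 in wild-type. The difference was −0.75 (SE 0.314, adjusted p = 0.320 in limma), and WT744 lay among the mutants. Only the wild-type mean of Mir181b-2, 5.50, reached the floor, against 4.75 in Fbn1mgR/mgR, so its difference carries that choice. Mir181d, of the same seed, differed by −0.15. Mir23a, Mir27a and Mir130a differed by −0.26, 0.01 and 0.01, and Mir23a by −0.07 without mgR612. Endothelial markers, 7 tested, gave 0 calls in limma, with array means of 9.80 to 10.59 against 10.27 to 10.96. At an unadjusted p under 0.05, 3 of them (42.9%) had lower values, beside 6.72% of all rows tested. The difference between these shares was not tested.

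Of 15 leukocyte microRNAs listed, 6 had a single-symbol row and 2 qualified, with 0 calls in limma among 3 tested rows. Mir142, found throughout blood cells, read 5.43, 5.35, 5.23 and 5.61 against 5.77, 4.84, 5.52 and 6.65 (difference −0.29, SE 0.317, adjusted p = 0.772 in limma), and the difference ran from −0.58 without WT676 to 0.03 without WT744. Mir511 lies within Mrc1, the macrophage mannose receptor, on the same strand. It read 7.42, 6.05, 5.97 and 6.96 against 6.25, 6.61, 6.49 and 5.64 (difference 0.35, SE 0.344, adjusted p = 0.734 in limma), and the difference ran from 0.08 without mgR611 to 0.56 without mgR613. Mrc1 itself rose by 1.83 (SE 0.294, adjusted p = 0.0148 in limma), a call kept with any 1 array left out. Mir155 was below the floor at 4.65, and Mir146b and Mir150 were at 3.27 and 3.24.

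Of 14 brown fat and adipocyte microRNAs, 12 had a single-symbol row and 4 qualified. These were Mir193b, Mir365-1, Mir365-2 and Mir455, with differences from −0.07 to 0.05. The list gave 0 calls in limma among 7 tested rows. At an unadjusted p under 0.05 there were 2 (28.6%), both lower and below the floor, beside 14.2% of all rows. In 1 (14.3%) the genotypes did not overlap, beside 8.92%, and the difference between these shares was not tested. None of the 4 members kept its sign with each array left out in turn, and Mir365-1 ran from −0.27 without mgR614 to 0.25 without mgR612. Of 13 striated muscle microRNAs, 9 had a single-symbol row and none qualified, Mir133a-1 being at 4.05, Mir1a-1 at 3.01 and Mir1a-2 at 3.09.

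**Figure D4:**
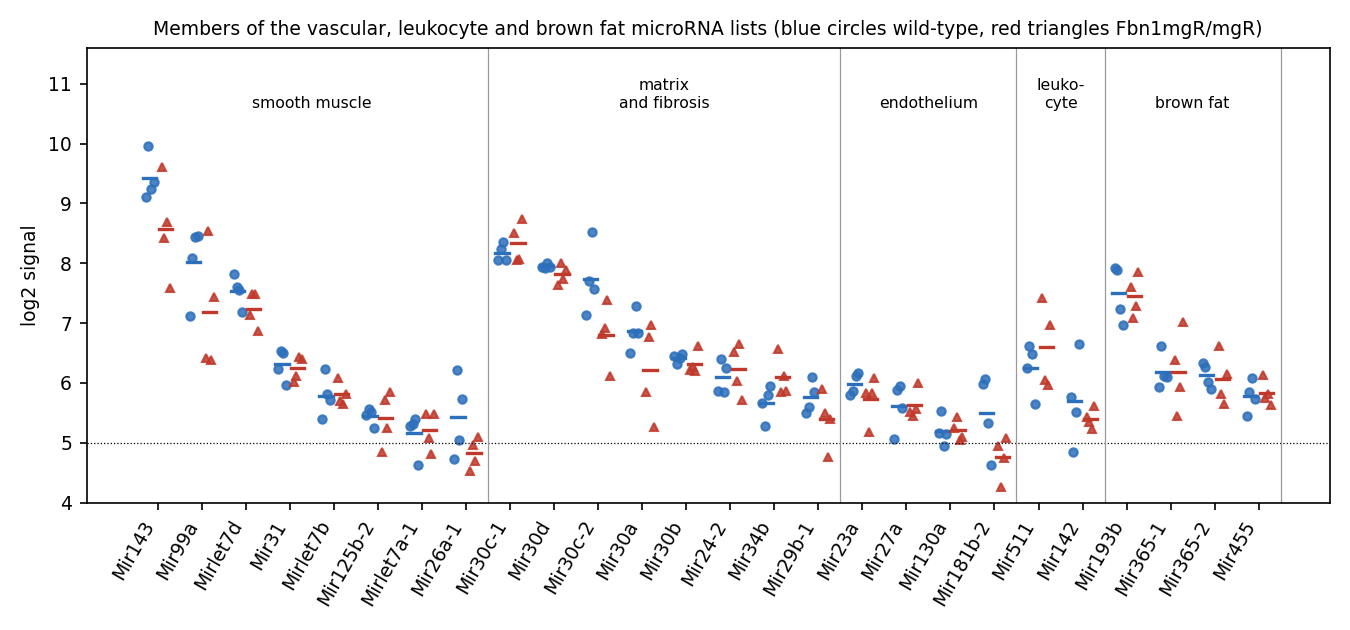
Log2 signal of each array (vertical axis) for the 26 members that belong to a list, in blocks by list. Circles are wild-type and triangles Fbn1mgR/mgR arrays (n = 4 each), bars are means and the dotted line is the floor of 5; Mir143 is the brightest, with means of 9.42 in wild-type and 8.58 in Fbn1mgR/mgR, and the genotypes overlap in every member shown.

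No clustered gene passed the test. Among 6 clusters with neighbours within 10 kb, Mir23a, Mir27a and Mir24-2 differed by −0.26, 0.01 and 0.14, and Mirlet7d and Mirlet7a-1 by −0.30 and 0.06. Mir329, Mir494 and Mir667, from an imprinted region of chromosome 12, differed by 0.22, 0.35 and 0.13, with adjusted p of 0.756, 0.605 and 0.743 in limma. Mir544 and Mir453 follow in steps under 10 kb but were not joined, because Mir544 had no strand when clusters were formed. They differed by 0.28 and 0.40 (adjusted p = 0.676 and 0.556 in limma). Mir493 and Mir432, further off on chromosome 12, differed by −0.50 and −0.14 (adjusted p = 0.778 and 0.783 in limma). The cluster on chromosome 2 held 20 members by RefSeq position. Of these, Mir669e, Mir466f-3, Mir466o, Mir669m-2 and Mir669h were read from rows on other chromosomes, and some others share their values. Sfmbt2, the host of the cluster, was near background at 4.10 ± 0.0876 against 4.15 ± 0.106 (SD, n = 4 each). Of the 43 members of those families, the 31 with a row on chromosome 2 had a median difference of 0.05 and the 12 with a row elsewhere −0.13. The 31 include the 10 members that share their values with another, with differences of 0.15 to 0.21. Their repeated values raise that median, so the contrast with −0.13 cannot be read from it.

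Members inside a gene on the same strand could be set beside that host. Of 40 such pairs with a tested host, 3 hosts (7.5%) passed the threshold in limma, beside 2.10% of all rows tested, Mrc1 and Slit3 as higher and Grtp1 as lower, and none of their microRNA rows did. At an unadjusted p under 0.05 there were 11 hosts (27.5%), 6 higher and 5 lower, beside 14.2%, and the difference between these shares was not tested. In 25 of the 40 pairs the 2 differences had one sign. Slit3, a secreted guidance ligand, rose by 0.98 (SE 0.171, adjusted p = 0.0209 in limma), and Mir218-2 within it differed by 0.11, with 6.41 to 8.37 in Fbn1mgR/mgR and 5.91 to 7.85 in wild-type. Grtp1 fell by 0.74 (SE 0.121, adjusted p = 0.0162 in limma), and Mir1968 differed by 0.22. The call of Slit3 was lost without mgR612 or WT742 (adjusted p = 0.0544 and 0.0514 in limma), that of Grtp1 without mgR613, WT675 or WT744 (adjusted p of 0.0534 to 0.0554 in limma). Without both mgR614 and WT676 the adjusted p in limma was 0.0945 for Mrc1 and 0.0743 for Slit3. Mir342 and its host Evl, an actin regulator, differed by 0.52 and 0.50, with adjusted p of 0.670 and 0.203 in limma, and Mir342 by 0.18 without mgR614 and 0.79 without WT742. Mir483 differed by −0.04 and its host Igf2, a fetal growth factor, by −0.56 (adjusted p = 0.211 in limma).

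**Figure D5:**
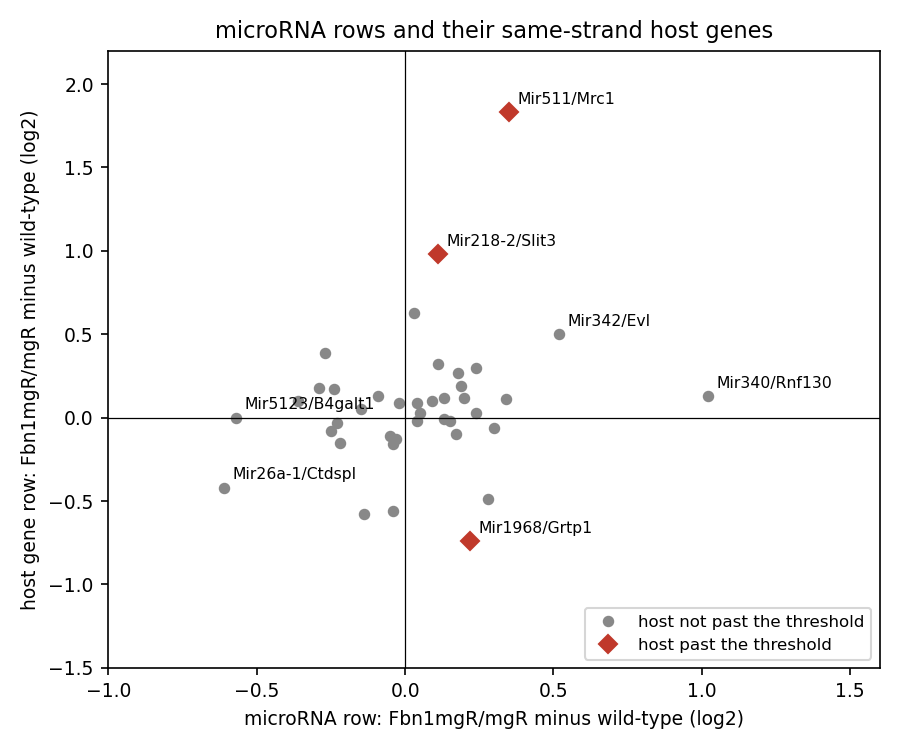
Fbn1mgR/mgR minus wild-type (log2) of the host gene row (vertical axis) against that of the microRNA row (horizontal axis) for 40 pairs on one strand. Diamonds are hosts past the adjusted p of 0.05 and circles the others; the 3 diamonds lie at microRNA differences of 0.35 (Mir511), 0.11 (Mir218-2) and 0.22 (Mir1968).

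The machinery that makes and uses microRNAs did not pass the test. Among 26 tested processing and effector genes limma gave 0 calls. At an unadjusted p under 0.05 there were 3 (11.5%), 2 of them higher, beside 14.2% of all rows tested. The median difference was −0.02. Dicer1 differed by 0.07 (SE 0.123) and Drosha by −0.16 (SE 0.134). The lowest p belonged to Tnrc6c, a silencing scaffold, at −0.51 (adjusted p = 0.226), then Ran and Xpo5, the nuclear export pair, at 0.27 and 0.26 (adjusted p = 0.322 and 0.334), all in limma. In 5 of the 26 (19.2%), Tnrc6a, Tnrc6c, Xpo5, Ran and Srrt, the genotypes did not overlap, beside 8.92% of all rows. Neither difference between shares was tested.

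Of 30 tested textbook targets of vascular microRNAs, members or not, 2 passed the threshold in limma, both higher. Of all rows tested, 1.54% passed as higher. At an unadjusted p under 0.05 there were 13 (43.3%), 9 higher and 4 lower, beside 14.2%, and the difference between these shares was not tested. Col1a1, a fibrillar collagen chain and Mir29 target, read 9.29, 9.32, 9.12 and 8.98 against 8.19, 8.01, 8.17 and 8.41 (difference 0.98, SE 0.141, adjusted p = 0.00837). Inpp5d, a leukocyte phosphatase targeted by Mir155, rose by 0.84 (SE 0.155, adjusted p = 0.0272). Eln, the elastin gene, differed by 1.10 (SE 0.240, adjusted p = 0.0536) and Spry1 by 0.42 (adjusted p = 0.0623). The call of Col1a1 held in all 20 alternatives, with adjusted p in limma up to 0.0418. That of Inpp5d was lost in limma without mgR611, mgR612, mgR613, WT675, WT676 or WT742 in turn (adjusted p of 0.0597 to 0.0832), without the filter on low signal (0.0533), and without both mgR614 and WT676 (0.0938). The median of the list was 0.17, and no measure here ties a target to a microRNA.

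At the edge of the rule, Mir185, Mir432, Mir1928 and Mir669a-2 were just inside, with means of 5.055, 5.035, 5.011 and 5.003. Mir3060, Mir1962, Mir3065 and Mir100 were just outside, at 4.995, 4.990, 4.966 and 4.965. Mir122, the liver microRNA, did not qualify. It averaged 3.82, rank 348 of 599 symbols, with 4.21, 3.59, 3.37 and 4.13 in Fbn1mgR/mgR and 3.59, 3.84, 3.89 and 3.91 in wild-type. Its mean lay under the 95th percentile of olfactory receptor rows and its difference of 0.02 was not tested.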

How the data were processed

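The deposited values are log2 signals of 65956 rows (transcript clusters) on 8 arrays, produced by the authors with Transcriptome Analysis Console per the submitters' processing notes. The sources used here do not give its version, the normalization or the probe summary. Gene symbols came from the platform annotation, where 30604 rows carry 1 symbol, 2146 several and 33206 none; RefSeq gene IDs matched 147 members. Genotypes were compared with limma 3.58.1 (R 4.3.3) on all rows, with an intensity trend in eBayes after lmFit, and Benjamini-Hochberg adjustment over the 32957 rows above the median mean signal of 4.01. The fit was tested on simulated data, where it called 47% of changes of 1 log2 unit and 72% of changes of 2. Of its calls there, 7.75% were false. A true change of 1 log2 unit can thus go uncalled. Members and gene lists were chosen with earlier results of these data known. The genes named by rule are members past the threshold, up to 8 rises and 8 falls with an unadjusted p under 0.05, the 10 brightest, list members, clusters, their same-strand hosts, the edges of the floor, Mir122, and the genes of lowest p in the target and processing lists. The further falls, Mir340, Mir1192, Mir342, Mir195a, seed partners, other hosts, rows off their chromosome and Ftl1 were named after their values were seen. Olfactory receptor rows were also chosen after the data were seen. Fbn1 itself is not analysed here. Replicate numbers are not shared between genotypes. Tables were made with Python 3.11.15 and pandas 2.3.3.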

Additional observations from a re-analysis of the deposited data

Results flagged for a closer look

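Among 96 groups of 4 arrays of the named members, 5 had an array that Dixon's test marked against the other 3, about the 1 in 20 that chance marks. Mir703 read 19.92 in mgR614, against 19.93 in the other mutant arrays. Those 3 values are equal at the ceiling, so a departure of any size is marked, and this mark carries no weight. Mir3470b read 18.88 in mgR612, against 18.36 to 18.42. Mir30b read 6.61 in mgR614, against 6.20 to 6.26. Mir680-3 read 6.12 in WT676, against 6.60 to 6.66 in the other wild-type arrays. Mirlet7a-1 read 4.62 in WT744, against 5.28 to 5.40. None of these 5 members passed the threshold in limma.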

How the results depend on the processing

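No paired analysis was possible because the genotypes share no replicate number. Across 20 alternatives to the fit and 7 to the membership, the count of members lower in Fbn1mgR/mgR stayed at 0. The count of members higher was 1 with array weights, with only rows above the upper quartile, with only single-symbol rows, with each array's lower quartile as a covariate and at an adjusted p under 0.1, and 2 with quantile normalization, Mir692-1 and Mir3473f (0.41, adjusted p = 0.0290 in limma). Leaving out 1 array gave 0 to 1, the 1 being Mir692-1 without mgR611. The added alternatives (the lower quartile as a covariate, the filter before the fit, leaving out both mgR614 and WT676, row chromosome, identical profiles and several-symbol rows, and all alternatives for host and target genes) were chosen after seeing the data. The median difference ran from −0.082 to 0.004 with 1 array left out, turning to 0.004 without mgR613.

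Of 48 named members set against the alternatives in 950 comparisons, 901 kept sign and side of the threshold. Signs were read before rounding. Mir684-1 turned to 0.03 under quantile normalization, and without mgR614 and WT676 Mir6240 turned to 0.06, Mir684-2 to 0.00 and Mir27a to −0.02. Mir365-1, at −0.00 in the reported fit, turned to 0.02 with quantile normalization, 0.00 with median centring, 0.03 with the brown fat covariate and 0.01 with the lower quartile as a covariate. With 1 array left out the sign turned in 14 members, whose differences then ran over these ranges, Mir684-1 −0.14 to 0.03, Mir684-2 −0.18 to 0.04, Mir669e −0.25 to 0.16, Mir193b −0.22 to 0.10, Mir31 −0.18 to 0.01, Mir365-1 −0.27 to 0.25, Mir365-2 −0.26 to 0.07, Mir455 −0.06 to 0.16, Mirlet7b −0.11 to 0.18, Mir27a −0.17 to 0.12, Mir142 −0.58 to 0.03, Mir125b-2 −0.18 to 0.15, Mir130a −0.08 to 0.12, Mirlet7a-1 −0.12 to 0.19. The files give no probe-level signal or detection call, so background was judged only from olfactory receptor rows.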
